A study of Mus musculus with 14 samples.

Results

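*Htr2b*, *Stra6l*, *Slc41a2*, *Emp1*, *Rab7b*, *Tspo*, *Nlrc3*, *Ell2* and *Phlda1* are 9 of the 33939 genes measured in CD11b+ microglia/macrophages of injured mouse brain. They were chosen by their measured levels, being high in the ipsilateral (IL) over the contralateral (CL) hemisphere, so that difference is given as a description, without a test. All 9 symbols matched an Ensembl identifier of the deposited table, and all 9 passed the filter on low values in every comparison. The libraries came from C57BL/6 mice aged 8 to 12 weeks that had received tamoxifen, and cells were collected 3 days after a traumatic brain injury (TBI) from both hemispheres of injured animals. Control mice (Ctrl) were *Cx3cr1-CreER*+/-, with 4 CL and 4 IL libraries, and knockout mice (cKO) were *Cx3cr1-CreER*+/- with both copies of the targeted gene floxed, with 3 CL and 3 IL libraries. Both genotypes therefore carry CreER, which the *Cx3cr1* promoter drives in microglia and other *Cx3cr1*-expressing myeloid cells, and all mice sequenced were male. The CL libraries come from the other hemisphere of injured mice and are not an uninjured baseline, and naïve mice were not analysed here. By the mouse numbers in the labels, 6 mice gave both hemispheres (4 Ctrl and 2 cKO), while 784 stands on an IL library only and 788 on a CL library only. Both were treated as separate mice, though the authors give an N of 3 for cKO and whether these are separate was not established. The deviations of 784 and 788 from the group means correlated at 0.181, as did those of the hemispheres of mouse 791.

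Microglia are the resident macrophages of the brain. After a contusion they lose part of their homeostatic program, take up debris and lipid through the endosome and lysosome, and are joined by macrophages from the blood. The 9 genes cover several steps at which such cells sense and handle their surroundings, from receptors and transporters of the plasma membrane through endosomes and mitochondria to a brake on innate sensing and a factor that speeds RNA polymerase II.

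The values are reads per 1e+06 reads assigned to genes (CPM), and the libraries held 12.2 to 41.6 M reads (1 M is 1e+06 reads), median 34.2 M. The sorted cells carried microglial transcripts, as the summed level of 10 microglia markers was 36753 to 43901 CPM over the CL libraries and 21300 to 26012 CPM over the IL libraries. Genes were called between hemispheres at a limma adjusted p of 0.05 or less together with a change of 1.2-fold or more. By this threshold 7 of the 10 microglia markers were lower in IL than CL in each genotype, against 2.95% of all genes in Ctrl and 10.2% in cKO. Of 10 markers of infiltrating monocytes/macrophages, 3 were called higher in Ctrl and 5 in cKO, against 3.74% and 12.5% of all genes, and the others were not called. With the mouse as a random effect 5 were called higher in Ctrl and 6 in cKO, against 10.6% and 15.4% of all genes in that fit. The summed level of these markers ranged in Ctrl from 254 to 827 CPM (CL) and from 410 to 642 CPM (IL), and in cKO from 151 to 383 CPM (CL) and from 343 to 534 CPM (IL). Neutrophil markers went the other way, with sums over 10 markers of 555 to 7883 CPM (CL) and 165 to 1036 CPM (IL) in Ctrl, and of 593 to 1662 CPM (CL) and 237 to 375 CPM (IL) in cKO. Of these 10, 0 were called in Ctrl and 7 were called lower in cKO, against 2.95% and 10.2% of all genes called lower. With the mouse as a random effect, 8 were called lower in each genotype, against 12.6% (Ctrl) and 12.9% (cKO). Sums over 10 early response genes that enzymatic dissociation can raise were 27590 to 42442 CPM over the CL and 19340 to 22896 CPM over the IL libraries. Over all libraries the sums were 16.2 to 43.4 CPM for B cell, 178 to 317 CPM for oligodendrocyte, 1.34 to 20.8 CPM for neuron, 117 to 218 CPM for astrocyte and 73.8 to 172 CPM for endothelial markers. No marker of these lists was at 0 in a whole group. In sorted bulk cells, a change in the number of cells of a type and a change in RNA per cell cannot be told apart, and the part of these markers in the differences below was not tested.

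The stretches before RefSeq start sites of 4 genes are shown to place the motifs searched for. They come from RefSeq promoter windows of the build GRCm38.p6, which run from 250 bases before to 50 bases after a start and hold 8 windows for 6 of the 9 genes. *Rab7b*, *Phlda1* and *Tspo* had no window in the table. For *Htr2b* (chr1:86111981-86112230, minus strand), *Emp1* (chr6:135362708-135362903, plus strand) and *Nlrc3* (chr16:3976633-3976882, minus strand), the longest run of the 250 bases outside annotated exons is given, and for *Ell2* (chr13:75707278-75707301, plus strand) only the match with 8 bases on each side. The RefSeq starts used for *Emp1* and *Ell2* come later than the starts of the gene locations given below, so their stretches lie within those locations. In *Ell2* all 250 bases lie in annotated exons. All 4 stretches read 5′ to 3′ on the strand of the gene, and capitals mark an AP-1 match in *Htr2b* and *Emp1* and a CRE match in *Ell2*.
Htr2b: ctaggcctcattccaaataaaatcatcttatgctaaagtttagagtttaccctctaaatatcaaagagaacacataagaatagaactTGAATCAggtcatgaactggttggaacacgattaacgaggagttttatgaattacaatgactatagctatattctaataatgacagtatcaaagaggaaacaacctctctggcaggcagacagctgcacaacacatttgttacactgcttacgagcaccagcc
Emp1: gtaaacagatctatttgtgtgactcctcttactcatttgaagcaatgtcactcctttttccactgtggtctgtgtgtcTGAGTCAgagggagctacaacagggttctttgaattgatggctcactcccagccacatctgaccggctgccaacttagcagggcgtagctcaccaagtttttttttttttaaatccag
Nlrc3: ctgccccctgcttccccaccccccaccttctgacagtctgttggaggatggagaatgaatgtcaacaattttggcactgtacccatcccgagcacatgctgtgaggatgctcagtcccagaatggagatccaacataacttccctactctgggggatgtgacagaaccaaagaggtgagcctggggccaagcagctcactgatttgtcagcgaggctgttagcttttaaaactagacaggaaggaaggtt
Ell2: acgagacaTGACGTCAgataagat

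Both strands of each whole window were searched. The AP-1 letters TGANTCA were in windows of 2 of the 6 genes, *Htr2b* and *Emp1*, and in 7.81% of 32851 promoter windows. The CRE letters TGACGTCA were in the window of *Ell2* and in 1.79% of all windows. The ETS/PU.1 letters GAGGAAGT (3.20% of all windows), the ISRE core (GAAA, any 2 bases, GAAA; 3.44%) and the NF-kB consensus (5.80%) were in none of the 8 windows. No match overlapped another motif, a match is not a bound site, and the absence of letters from a window says nothing of the factor.

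*Htr2b*, the Gq-coupled serotonin receptor 2B (chr1:86099026-86111970, minus strand), had the widest difference of the 9 genes between hemispheres in Ctrl. In Ctrl CL it was 1.49, 1.05, 0.14 and 0.82 CPM in mice 3541, 3545, 3546 and 3551, and in Ctrl IL 61.8, 45.8, 47.5 and 36.7 CPM in the same mice. In cKO CL it was 10.6, 1.26 and 3.42 CPM in mice 3592, 788 and 791, and in cKO IL 43.7, 30.8 and 30.8 CPM in mice 3592, 784 and 791. The gene was almost silent in CL of Ctrl, where the lowest value rests on 4 reads, and every IL library lay above every CL library in both genotypes. The fold change of the means was 54.7 in Ctrl and 6.88 in cKO, and the log2 differences, on the scale of log2(CPM + 1), were 4.77 ± 0.31 and 2.93 ± 0.49 (SE). The cKO CL library of mouse 3592 stood above the other 2 cKO CL libraries, and without it the cKO difference was 3.55. The gene lies on the opposite strand within *Psmd1* and shares 252 exon bases with it, and *Psmd1* was at a median of 177 CPM. Strand use in counting was not given in the sources used here, so reads of the shared bases cannot be told apart.

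*Stra6l*, a relative of the retinol transporter STRA6 that takes up retinol from its carrier in blood (chr4:45848664-45887008, plus strand), was among the lowest. In Ctrl CL it was 0.58, 0.23, 0.42 and 0.75 CPM and in Ctrl IL 10.6, 8.42, 16.1 and 7.72 CPM (mice 3541, 3545, 3546, 3551). In cKO CL it was 2.67, 1.88 and 1.46 CPM (mice 3592, 788, 791) and in cKO IL 10.3, 9.13 and 10.2 CPM (mice 3592, 784, 791). The IL libraries of the genotypes overlapped, while each cKO CL library was above each Ctrl CL library. The fold change of the means was 21.7 in Ctrl and 4.94 in cKO.

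*Slc41a2*, a magnesium transporter of the plasma membrane (chr10:83230848-83337882, minus strand), was 0.87, 0.65, 1.48 and 1.24 CPM in Ctrl CL and 8.34, 9.02, 12.0 and 6.84 CPM in Ctrl IL. The cKO values were 1.82, 1.16 and 1.78 CPM in CL and 12.0, 8.52 and 9.07 CPM in IL. The 4 groups fell into a low and a high pair with no library between, and within a pair the genotypes overlapped. The fold change of the means was 8.53 in Ctrl and 6.21 in cKO.

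*Emp1*, a membrane protein of the PMP22 family (chr6:135362545-135383173, plus strand), was 1.23, 2.93, 1.24 and 2.74 CPM in Ctrl CL and 30.9, 28.0, 77.6 and 56.2 CPM in Ctrl IL. The cKO libraries held 12.5, 1.96 and 3.97 CPM in CL and 85.6, 40.6 and 49.0 CPM in IL. As with *Htr2b*, the cKO CL library of mouse 3592 was the highest CL library, and the same mouse had the highest IL value. The IL values spread widely within each genotype, at 48.2 ± 23.4 CPM in Ctrl (SD, n = 4) and 58.4 ± 24.0 CPM in cKO (n = 3). The log2 difference between hemispheres was 4.01 ± 0.31 in Ctrl and 3.34 ± 0.49 in cKO (SE).

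*Rab7b*, a small GTPase of late endosomes that returns cargo to the Golgi and is known to dampen Toll-like receptor signalling (chr1:131688695-131715439, plus strand), was 25.9, 20.4, 14.7 and 20.9 CPM in Ctrl CL and 159, 134, 155 and 133 CPM in Ctrl IL. Its cKO levels were 45.4, 16.8 and 53.7 CPM in CL and 151, 138 and 158 CPM in IL. The IL libraries of both genotypes were within a narrow band of 133 to 159 CPM, while cKO CL split into mice 3592 and 791, above all Ctrl CL libraries, and mouse 788, within them. The fold change of the means was 7.09 in Ctrl and 3.86 in cKO.

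*Tspo*, the translocator protein of the outer mitochondrial membrane whose ligands are used to image activated microglia, was the most abundant of the 9 (chr15:83563592-83574203, plus strand). It was 195, 103, 65.1 and 119 CPM in Ctrl CL and 349, 347, 93.4 and 318 CPM in Ctrl IL, and 120, 85.2 and 123 CPM in cKO CL against 307, 315 and 320 CPM in cKO IL. It was the one gene of the 9 whose hemispheres overlapped in Ctrl, as the IL library of mouse 3546 lay below CL libraries of other mice. That library has the fewest reads, 12.2 M, and in it the other 8 genes were at 0.836 to 2.02 times the mean of the other Ctrl IL libraries, against 0.276 times for *Tspo*. The log2 difference in Ctrl was 1.204 ± 0.52 (SE), and 1.73 ± 0.34 without that library. In cKO, the difference was 1.60 ± 0.14. The gene shares 53 exon bases with *Mcat* on the other strand, which was at a median of 45.5 CPM.

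*Nlrc3*, a NOD-like receptor known as a brake on innate signalling (chr16:3945007-3976632, minus strand), was 2.07, 0.98, 1.31 and 2.30 CPM in Ctrl CL and 22.6, 15.6, 18.9 and 19.6 CPM in Ctrl IL. Levels in cKO were 2.28, 0.77 and 1.46 CPM in CL and 9.84, 6.55 and 6.59 CPM in IL. The CL libraries of the genotypes overlapped, whereas all cKO IL libraries lay below all Ctrl IL libraries and above every CL library. The fold change between hemispheres was 11.5 in Ctrl and 5.09 in cKO. Its transcripts held stretches of 150 bases or more at 90% identity or above in common with those of 352 other genes, 179 of them on the same strand, and the longest on the same strand was 210 bases at 91.9% identity. Reads from such stretches may be shared between genes, so the counting of *Nlrc3* is uncertain there. None of the other 8 genes had such a match on the same strand.

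*Ell2*, an elongation factor of RNA polymerase II and part of the super elongation complex (chr13:75706757-75772364, plus strand), was 12.4, 11.3, 17.0 and 17.98 CPM in Ctrl CL and 53.3, 66.6, 78.0 and 55.9 CPM in Ctrl IL. In cKO it was 19.9, 15.3 and 27.8 CPM in CL and 83.2, 83.2 and 90.5 CPM in IL. All cKO IL libraries were above all Ctrl IL libraries, as for 4.85% of genes tested, though the nearest were 83.2 and 78.0 CPM. The fold change between hemispheres was 4.32 in Ctrl and 4.08 in cKO. The gene shares 130 exon bases with the snoRNA *Gm23127* on the same strand and 94 with the antisense *1700037F03Rik*, neither of which had values.

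*Phlda1*, a pleckstrin homology-like protein whose transcript responds early to many stimuli (chr10:111506286-111508645, plus strand), was 17.4, 10.9, 20.2 and 20.1 CPM in Ctrl CL and 49.7, 58.6, 47.0 and 60.5 CPM in Ctrl IL. In cKO it was 24.0, 19.9 and 22.1 CPM in CL and 60.6, 63.2 and 72.2 CPM in IL. The hemispheres were far apart in both genotypes, and cKO IL was above Ctrl IL by a margin of 60.6 to 60.5 CPM at the nearest libraries. The fold change between hemispheres was 3.14 in Ctrl and 2.97 in cKO. The gene shares 727 exon bases with the lincRNA *Gm28592* on the other strand, which was at a median of 4.61 CPM.

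**Figure D1:**
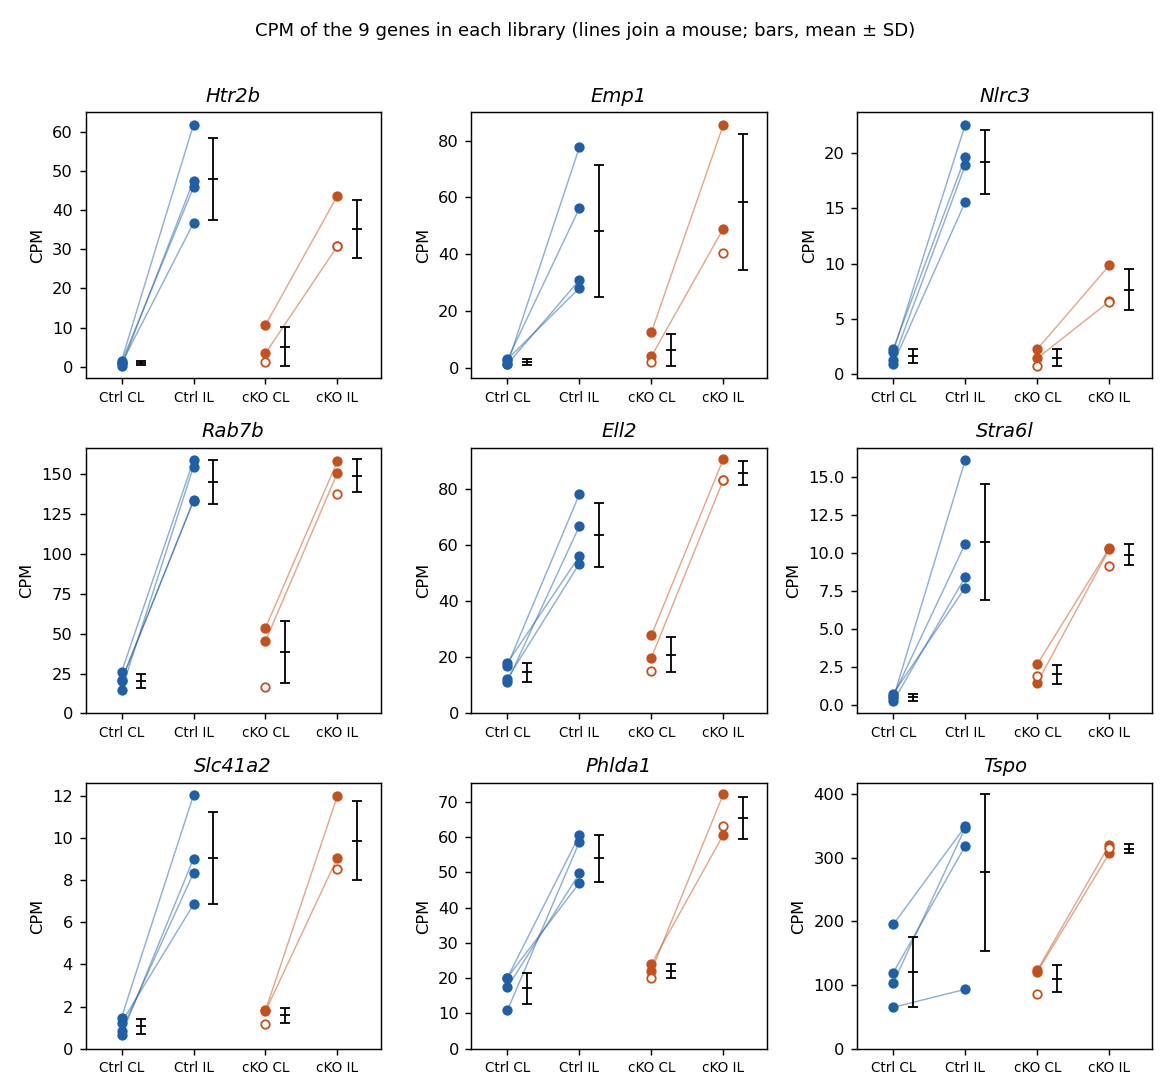
CPM of each of the 9 genes (vertical axes, linear, 1 panel per gene) in the 14 libraries by group; lines join the hemispheres of a mouse, open circles are mice with 1 hemisphere, and bars are the mean ± SD. IL lies above CL along every line, *Tspo* of Ctrl mouse 3546 is the flattest, and *Nlrc3* has the cKO IL libraries (6.55 to 9.84 CPM) below the Ctrl IL libraries (15.6 to 22.6 CPM).

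Every mouse with both hemispheres had more of every gene in IL than CL, in 36 of 36 pairs of gene and mouse in Ctrl and in 18 of 18 in cKO. Of all genes, 10.1% were higher in IL in all 6 mice, 13.6% in all 4 Ctrl mice and 30.1% in both cKO mice. In Ctrl the IL and CL libraries did not overlap for 8 of the 9 genes, against 6.26% of genes tested with IL above CL, and in cKO for 9 of 9, against 18.1%. These counts follow from how the genes were listed, and nothing is read from them. The median log2 difference over the 9 genes was 2.67, 2.73, 3.06 and 2.40 in Ctrl mice 3541, 3545, 3546 and 3551, and 1.88 and 1.75 in cKO mice 791 and 3592, while the median over all 18476 genes was between -0.05 and 0.07 in each mouse. Over the groups the median of the 9 was 2.87 in Ctrl and 2.09 in cKO.

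The mice did not rank alike from gene to gene. Mouse 3546 had the largest difference of the Ctrl mice in *Htr2b* (5.27), *Emp1* (5.07), *Rab7b* (3.33) and *Stra6l* (3.49), and the smallest in *Phlda1* (1.196) and *Tspo* (0.53). Mouse 3545 had the largest in *Nlrc3* (3.18), *Ell2* (2.54), *Slc41a2* (2.72), *Phlda1* (2.41) and *Tspo* (1.81), and the smallest in *Emp1* (2.98). The differences of both cKO mice were below those of all 4 Ctrl mice for *Htr2b*, *Nlrc3*, *Rab7b* and *Stra6l*, as for 6.98% of all genes, and within or overlapping the Ctrl range for the other 5. The genes were listed for the difference between hemispheres, so nothing is read from this count.

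**Figure D2:**
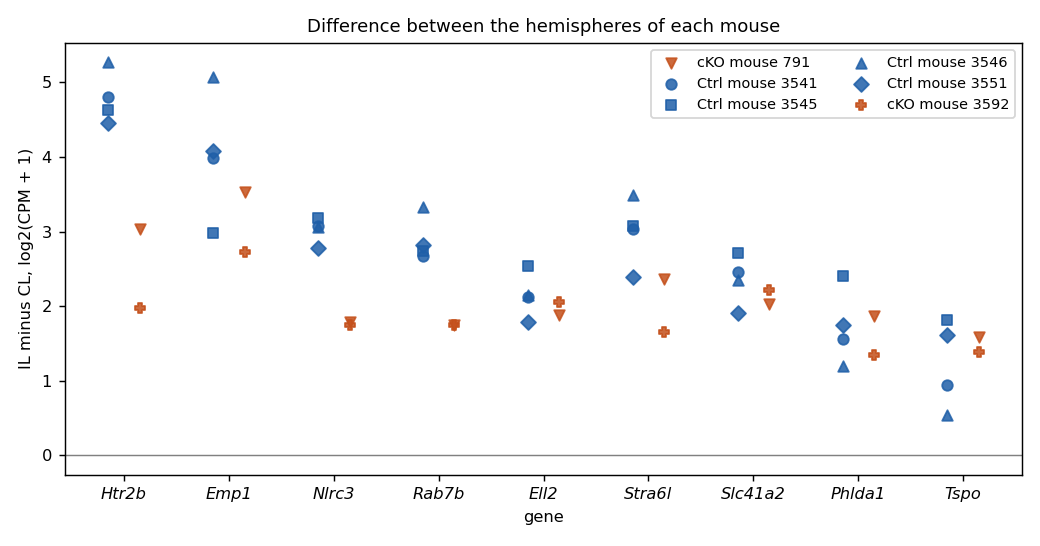
Difference between IL and CL of each mouse on the log2(CPM + 1) scale (vertical axis) for the 9 genes (horizontal axis), with 4 Ctrl mice in blue and 2 cKO mice in orange, 1 symbol per mouse. All points lie above 0, from 0.53 (*Tspo*, mouse 3546) to 5.27 (*Htr2b*, mouse 3546).

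Per kilobase of exon, which allows levels of genes to be compared, *Tspo* led in Ctrl IL with a mean of 263 CPM per kb. *Rab7b* (28.8 to 34.3 CPM per kb over libraries), *Htr2b* (17.2 to 29.0) and *Phlda1* (21.3 to 27.4) came next, and the range of *Htr2b* overlapped those of the other two. *Emp1* (4.73 to 13.1) and *Ell2* (5.43 to 7.93) overlapped as well, followed by *Nlrc3* (2.20 to 3.19), *Slc41a2* (1.28 to 2.25) and *Stra6l* (0.807 to 1.68), each overlapping its neighbour. In Ctrl CL the order differed, as *Phlda1* (mean 7.78 CPM per kb) was above *Rab7b* (4.43), and *Htr2b* (0.411) was below *Ell2* (1.49).

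The genotypes were compared within each hemisphere, a contrast that did not list the genes. It uses libraries of the contrast that did, and both IL and CL levels entered the choice. Counts and p-values of the 9 genes in this contrast are therefore not independent of the choice. In IL, 1 of the 9 genes passed the threshold (the same limma adjusted p and fold as above), against 0.676% of the 16873 genes tested. This gene was *Nlrc3*, lower in cKO, at 7.66 ± 1.89 CPM against 19.2 ± 2.86 CPM (SD, n = 3 and 4), with a log2 difference of -1.22 ± 0.20 (SE) and a limma adjusted p of 0.0378. Its cKO libraries were below every Ctrl library, as were those of 5.48% of genes tested. The direction and size were kept in all 16 settings tried, from -1.35 to -1.08, but the call was lost without a filter on low values (limma adjusted p 0.0818) and in 6 of 7 fits that left out 1 library. Without Ctrl mouse 3541, 3545 or 3551 the limma adjusted p was 0.0924, 0.0973 and 0.120, and without cKO mouse 784, 791 or 3592 it was 0.225, 0.213 and 0.0586. Without Ctrl mouse 3546 it was 0.00904, and 0.0113 when the 14 libraries were fitted together with a random effect for mouse, a fit in which 0.98% of genes passed. T and NK cells also express *Nlrc3*, and sums over 10 of their markers ranged in IL from 6.03 to 8.84 CPM (Ctrl) and from 6.13 to 15 CPM (cKO), and in CL from 14.4 to 24.4 CPM (Ctrl) and from 6.97 to 11.5 CPM (cKO). Their part in the difference was not tested.

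**Figure D3:**
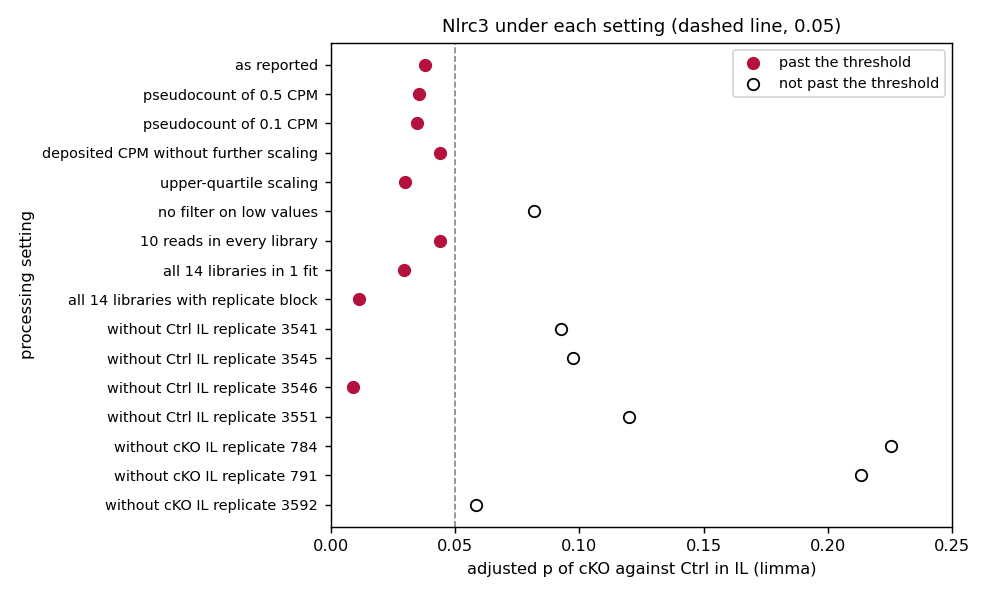
Adjusted p of *Nlrc3* for cKO against Ctrl in IL (horizontal axis, linear, limma) under each of 16 processing settings (vertical axis), with filled points past the threshold and a dashed line at 0.05. The 9 filled points are at most 0.0440, and the open points run from 0.0586 to 0.225.

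For the other 8 genes the IL level did not pass the test, with limma adjusted p from 0.297 to 0.985. *Ell2* came nearest, at 85.6 ± 4.26 CPM in cKO against 63.5 ± 11.3 CPM in Ctrl, a log2 difference of 0.45 with a 95% interval of 0.14 to 0.77 and a limma adjusted p of 0.297. *Htr2b* was 35.1 ± 7.44 CPM in cKO and 48.0 ± 10.4 CPM in Ctrl, a log2 difference of -0.43 (-0.95 to 0.09), which was -0.23 without Ctrl mouse 3541. The intervals were narrow for *Rab7b*, -0.27 to 0.37, and wide for *Tspo*, -0.78 to 1.51, where the Ctrl library of mouse 3546 sets the spread and the difference turns from 0.36 to -0.15 without it. *Stra6l*, *Slc41a2* and *Rab7b* had differences of -0.05, 0.13 and 0.05, and each changed sign when a library was left out.

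In CL, 0 of the 9 genes passed, against 0.869% of the 16570 genes tested, while 2 of them had an unadjusted p under 0.05 by limma, as did 1655 genes in all. *Stra6l* was 2.003 ± 0.617 CPM in cKO and 0.493 ± 0.222 CPM in Ctrl, a log2 difference of 0.99 ± 0.20 (SE) with a limma adjusted p of 0.0528. Its cKO libraries were above every Ctrl library, as were those of 3.98% of genes, and it passed the threshold in 2 of 15 settings, with upper-quartile scaling (limma adjusted p 0.0399) and with all 14 libraries in 1 fit (0.0418). With the mouse as a random effect in that fit the limma adjusted p was 0.0692, and it reached 0.185 in the other settings. The size of the difference depends on the pseudocount, at 1.85 with 0.1 CPM in place of 1 CPM. *Htr2b* followed at 5.10 ± 4.90 CPM in cKO and 0.876 ± 0.563 CPM in Ctrl, where the limma adjusted p was 0.316, and its log2 difference of 1.40 was 0.78 without the cKO library of mouse 3592. Of the 9 genes, 7 had a higher mean log2 level in cKO CL, with a median difference of 0.45, against 40.02% of all genes and a median of -0.07. The libraries of mice 791 and 3592 each held 7 of the 9 above every Ctrl CL library and that of mouse 788 held 2, against 17.0% to 17.5% of all genes in these libraries. Ctrl CL levels entered the choice of the genes, so this count is a description and not an independent result. Neutrophil marker sums also spread over the CL libraries, from 555 CPM (Ctrl mouse 3551) to 7883 CPM (Ctrl mouse 3541), with the 3 cKO libraries between. In cKO mice 788, 791 and 3592 the CL sums of monocyte/macrophage markers were 151, 248 and 383 CPM and those of 8 markers of border-associated macrophages 190, 302 and 509 CPM. The neutrophil sums in the same mice, 593, 926 and 1662 CPM, had this order too. *Htr2b*, *Emp1*, *Nlrc3*, *Slc41a2* and *Phlda1* ranked these 3 libraries in the same order, and *Rab7b*, *Ell2*, *Stra6l* and *Tspo* did not. The share of all genes with this order of 3 libraries was not counted, so nothing is read from it. In Ctrl CL the border-associated sum was lowest in mouse 3541 (342 CPM) and highest in mouse 3546 (723 CPM), where *Htr2b* was highest and lowest. The monocyte/macrophage and neutrophil sums were instead highest in mouse 3541 (827 and 7883 CPM). In mouse 3546 these sums were 613 and 3660 CPM. The part of these cells in the values of the 9 genes was not tested.

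**Figure D4:**
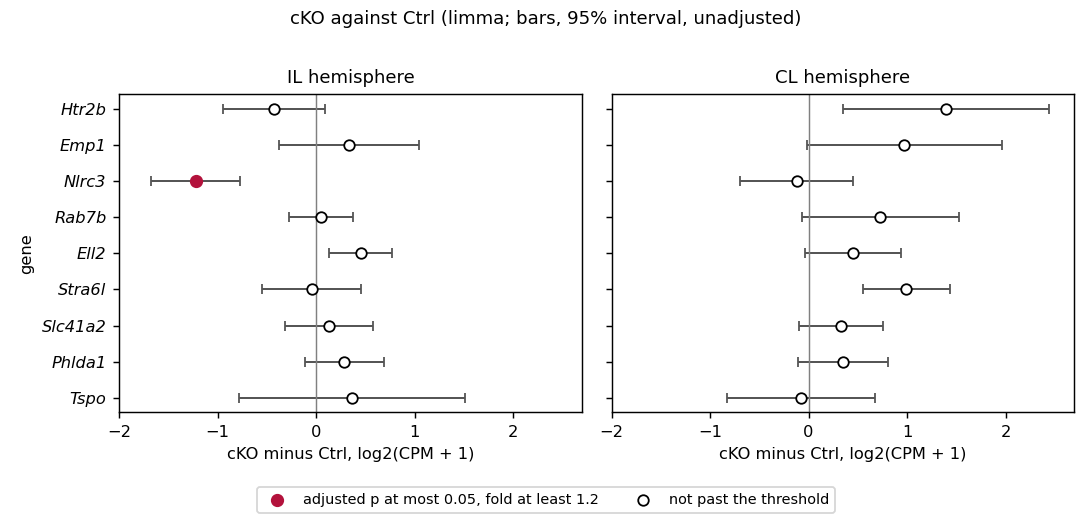
Difference between cKO and Ctrl on the log2(CPM + 1) scale (horizontal axes, points) with the unadjusted 95% interval from limma (bars) for the 9 genes in IL and CL. *Nlrc3* in IL (-1.22) is the one filled point, past the threshold, and *Stra6l* in CL (0.99) is the nearest of the open points to it.

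Whether the difference between hemispheres itself depended on genotype was tested with an interaction over all 14 libraries. None of 18476 genes passed in limma (0.0%), while 465 had an unadjusted p under 0.05. The interaction is made of the differences for which the 9 genes were listed, so their values are a description and carry no test. The estimates, cKO minus Ctrl, were -1.81 ± 0.61 for *Htr2b*, -1.12 ± 0.35 for *Nlrc3* and -1.03 ± 0.31 for *Stra6l* (SE), and 1 of the 9 was above 0, against 57.0% of all genes. The median of the 9 was -0.65, against 0.04 over all genes, with 95% intervals of single genes that reached up to 1.44 to each side. This median rests on few libraries, being -0.14 without cKO CL of mouse 3592, -0.40 without that of mouse 791 and -1.04 without that of mouse 788. Without the CL library of mouse 3592 the estimate for *Htr2b* was -1.20 and that for *Emp1* went from -0.65 to -0.05.

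Genes related to the 9 were taken from lists drawn up by family and pathway. Over 9 lists with 105 other genes, 5 of 78 tested rose and 0 fell in IL of Ctrl, against 3.74% and 2.95% of all genes tested, and 10 of 82 rose and 4 fell in cKO, against 12.5% and 10.2%. With the mouse as a random effect, which pairs the hemispheres, the counts were 12 higher and 7 lower in Ctrl, against 10.6% and 12.6%, and 14 higher and 4 lower in cKO, against 15.4% and 12.9%. Among the serotonin receptors, 2 of 13 others were tested in Ctrl and 3 in cKO, and *Htr7*, a Gs-coupled receptor, rose from 0.420 ± 0.246 to 2.47 ± 0.8292 CPM in Ctrl and from 0.662 ± 0.206 to 2.37 ± 0.619 CPM in cKO (limma adjusted p 0.00305 and 0.00640). Of the 3 relatives of *Emp1*, none passed in Ctrl, whereas in cKO *Emp3* rose by 1.61 and *Emp2* fell by 0.89 on the log2 scale (limma adjusted p 0.00294 and 0.0251), and both passed in Ctrl with mouse as a random effect. Of 13 NOD-like receptors tested, *Nlrp3*, the inflammasome sensor, and *Nlrc5*, a regulator of MHC class I, rose in both genotypes, by 0.84 and 1.496 in Ctrl and 0.56 and 0.997 in cKO, and *Nlrp1a* fell by 0.60 in cKO, and in Ctrl too in the fit with mouse as a random effect.

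Of 14 endosomal and lysosomal Rab genes tested, *Rab32*, which acts at lysosome-related organelles, rose from 125 ± 16.7 to 286 ± 11.7 CPM in Ctrl and from 125 ± 18.7 to 262 ± 64.7 CPM in cKO (limma adjusted p 0.00419 and 0.00515). *Rab5c*, *Rab7*, *Rab20* and *Rilp*, the effector of RAB7, rose in cKO by 1.03, 0.49, 1.02 and 0.55, and passed in Ctrl when the mouse was a random effect. *Rab7*, the general late endosomal GTPase, was at 289 ± 36.3 and 437 ± 33.1 CPM in Ctrl CL and IL. Between genotypes 1 of 83 related genes tested passed in IL and 1 of 80 in CL, against 0.676% and 0.869% of all genes. Both were *Rab5b*, lower in cKO by 1.24 in IL and 1.09 in CL (limma adjusted p 0.0139 and 0.0441). Around *Ell2*, no partner of the super elongation complex rose in either genotype, and the cyclin *Ccnt2* fell by 0.64 in cKO (limma adjusted p 0.00799). In Ctrl *Ccnt2* was lower by 0.74 (limma adjusted p 0.0509), which passed with mouse as a random effect (0.00288), and *Eaf1* passed as higher in both genotypes with mouse as a random effect. Of the retinoid genes, *Rara*, a retinoic acid receptor, rose by 1.16 in Ctrl (limma adjusted p 0.0476) and was 1.08 higher in cKO, where the limma adjusted p was 0.0698, or 0.0446 with mouse as a random effect, and *Rdh10*, a retinol dehydrogenase, passed as lower in Ctrl in that fit. No magnesium transporter passed among 11 tested, nor did *Phlda3*, though *Mrs2*, a mitochondrial magnesium channel, passed as higher in both genotypes with mouse as a random effect and *Trpm6*, a magnesium channel of the plasma membrane, as lower in Ctrl. Of 11 partners of TSPO and cholesterol genes tested, *Dbi*, its endogenous ligand, rose by 0.81 and *Cyp27a1*, a mitochondrial sterol hydroxylase, fell by 1.11 in cKO (limma adjusted p 0.00758 and 0.00351), and none passed in Ctrl, where *Cyp27a1* and *Stard3* passed as lower with mouse as a random effect. *Vdac3*, a channel of the outer mitochondrial membrane, passed as higher in cKO in that fit.

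**Figure D5:**
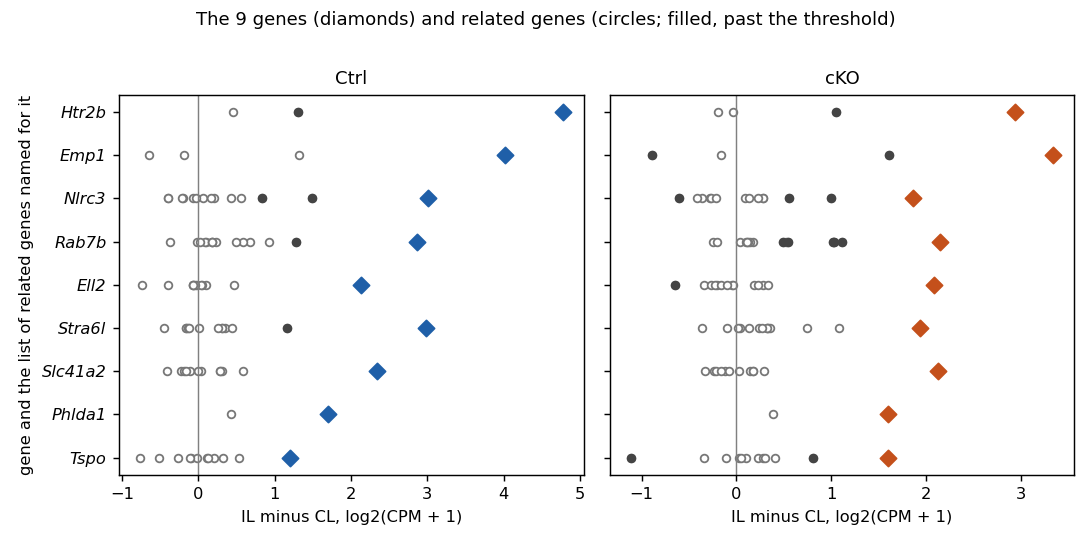
Difference between IL and CL on the log2(CPM + 1) scale (horizontal axes) in Ctrl and cKO for the 9 genes (diamonds) and the tested genes of the list named for each (circles, 1 line per list; filled circles passed the limma threshold). The diamonds lie to the right of most circles, as the 9 were listed for this difference, and in Ctrl 5 circles are filled.

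The genes most like each of the 9 over the 14 libraries were found by the root mean square difference of their centred log2 profiles, among 18476 genes. *Ell2* and *Slc41a2* were each other's nearest, 0.22 apart, followed for both by *Lilrb4a* at 0.24. *Htr2b* was nearest to *F7* and *Msr1* (0.47 and 0.49), *Emp1* to *Fn1* and *F7* (0.43 and 0.55), *Nlrc3* to *Tgfbi* and *Gpc1* (0.42 and 0.43) and *Rab7b* to *Gla* and *Ptgs2* (0.21 and 0.31). *Stra6l* was nearest to *Slc41a2* and *P2ry2* (0.34 and 0.37), *Phlda1* to *Lif* and *Itga5* (0.22 and 0.23) and *Tspo* to *Fxyd5* and *Aprt* (0.18 and 0.24). Genes with a small range over the libraries lie closer by this measure, so the distances of *Tspo* and *Htr2b*, whose log2 ranges were 2.80 and 6.02, are not on the same footing. Among the 9, *Htr2b* and *Tspo* were the farthest apart, at 1.55.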

How the data were processed

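CD11b+ cells were sorted with magnetic beads and sequenced from Smart Seq v4 libraries. The authors mapped reads with STAR to mm10 and used Partek Flow 8.0, per the labels. The deposited table, named raw counts by the authors, holds CPM, as each library sums to 1e+06. The other deposited files hold the authors' own comparisons (p-values, fold changes and group means) and were not used. Depth was read from the smallest step of each library. Between 75.3% and 81.1% of values under 100 reads were whole within 0.03, so no count test was run. A count of 3 reads, the limit that a count of 0 allows, was 0.0721 to 0.245 CPM, which covers counting error only.

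Values were scaled by trimmed means of M-values without weights (30% of M, 5% of A trimmed), transformed as log2(CPM + 1), which understates changes of low genes, and fitted with limma 3.58.1 in R 4.3.3 (trend, Benjamini-Hochberg over all genes tested). Genes needed the CPM of 10 reads at median depth in a number of libraries equal to the smaller group, and 15 reads in total. A gene was called when its adjusted p was 0.05 or less and it changed 1.2-fold or more, without the fold limit for the interaction. Scripts were tested on simulated data with known changes. A log2 change of 1 was called in 29.5% of changed genes between genotypes in IL, 23.0% in CL and 15.0% in the interaction. Between hemispheres it was called in 54.5% (Ctrl) and 0.0% (cKO). A change of 2 between genotypes was called in 90.5% (IL), 92.0% (CL) and 86.0% (interaction), so a missing call does not show a missing change. Groups and mouse numbers come from the labels. The gene targeted in cKO is not reported here. The hemispheres of a mouse share its number, and their deviations from group means correlated at 0.181 to 0.610 in 6 mice, against -0.535 to 0.502 (median -0.215) over 19 other pairs. In the main comparisons of genotypes within a hemisphere, each mouse number gave 1 library, so those p-values measure the spread between these mice. The main fits between hemispheres and of the interaction held no term for mouse. They treated both libraries of a mouse as separate units, so their p-values leave the pairing out. Where the pairing was modelled, limma estimated a correlation within mice of 0.549 in Ctrl and 0.248 in cKO. Calls between hemispheres in Ctrl were 1096 without this term and 3790 with it.

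The 9 genes, 9 lists of related genes and 11 marker lists were chosen with earlier results of these data known. All 9 genes were named, with related genes named where called, and for each the 2 genes with the smallest root mean square difference. Symbols matched 33802 of 33939 identifiers. Locations are those of GENCODE M21 on GRCm38, per-kilobase values use the union of exons, and transcripts were compared with blastn. Python 3.11.15, pandas 2.3.3, numpy 2.4.6 and matplotlib 3.10.9 did the rest.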

Additional observations from a re-analysis of the deposited data

Results flagged for a closer look

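*Tspo* stood out in a single Ctrl library. The IL library of mouse 3546 held 93.4 CPM, whereas the IL libraries of mice 3541, 3545 and 3551 held 318 to 349 CPM. The gap to the nearest of these was 0.880 of the whole range of the group, above Dixon's 95% critical value for 4 samples. Over the 9 genes and both Ctrl groups, 18 sets of 4 libraries were examined in this way and 1 stood out, while chance alone gives about 1 in 20. The CL library of the same mouse also had the lowest *Tspo* of its group, at 65.1 CPM. The profiles of *Fxyd5* and *Aprt* over the 14 libraries lay 0.18 and 0.24 from that of *Tspo*, so the low value need not be particular to *Tspo*. Without the IL library of mouse 3546, 293 genes differed between genotypes in IL, against 114 with it. The part of the depth of that IL library, 12.2 M reads, in this value was not tested.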

How the results depend on the processing

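The difference between hemispheres kept its direction for all 9 genes under every alternative tried, except that 7 of the 9 entered with 10 reads in every library of Ctrl, and its median over the 9 was 2.68 to 3.02 in Ctrl and 1.91 to 2.17 in cKO when 1 library was left out. Counts over all genes moved more. Without a filter on low values, 545 genes differed between hemispheres in Ctrl, 2507 in cKO, 66 between genotypes in IL and 78 in CL, and 0 of the 9 passed in IL. With all 14 libraries in 1 fit the counts were 1933 (Ctrl), 1357 (cKO) and 259 (CL), and with 10 reads in every library 85 in CL. In CL, 1 of the 9, *Stra6l*, passed with upper-quartile scaling and with all 14 libraries in 1 fit. A smaller pseudocount widened the differences of the low genes, and with 0.1 CPM those between hemispheres in Ctrl were 5.95 for *Htr2b* and 4.29 for *Stra6l*, and in the interaction -2.62 and -1.91. *Tspo* in CL turned from -0.07 to 0.022 with upper-quartile scaling. The cause of the other shifts was not tested.

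With the mouse as a replicate block, which pairs the hemispheres, 3790 genes differed in Ctrl and 3 in the interaction. With all 14 libraries and the block, 181 differed between genotypes in IL and 280 in CL, and *Rab7b* in IL was -0.091. Against the fits as reported, the block changed no call of the 9 in the genotype comparisons or the interaction. Against the fit of all 14 libraries without it, the block removed the call of *Stra6l* in CL (limma adjusted p 0.0418 without and 0.0692 with it).

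Leaving out 1 library gave 498 to 1445 genes between hemispheres in Ctrl, 1882 to 3547 in cKO, 49 to 293 between genotypes in IL (293 without Ctrl mouse 3546), 70 to 165 in CL and 0 to 1 in the interaction. Of the 9, 0 to 1 passed in IL, and 0 in CL and in the interaction. The median of the 9 was -1.04 to -0.14 in the interaction and 0.36 to 0.63 between genotypes in CL. Signs turned within these ranges for *Stra6l* (-0.19 to 0.10), *Slc41a2* (-0.00081 to 0.21), *Tspo* (-0.15 to 0.60) and *Rab7b* (-0.031 to 0.16) in IL, for *Tspo* (-0.35 to 0.24) and *Nlrc3* (-0.33 to 0.10) in CL, and for *Ell2* (-0.19 to 0.19), *Phlda1* (-0.23 to 0.044) and *Tspo* (-0.13 to 0.72) in the interaction. With 3 or 4 libraries per group, the widest 95% interval among the 9 between genotypes reached 1.14 to each side in IL and 1.05 in CL.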
